A study of Mus musculus with 6 samples.

Results

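The early growth response (EGR) factors, the NR4A nuclear receptors and the NAB corepressors that bind EGR proteins were read on arrays of liver CD8+ T cells. The 8 genes Egr1, Egr2, Egr3, Nr4a1, Nr4a2, Nr4a3, Nab1 and Nab2 were taken by the gene name of their probes in the array files, and all 8 were found, with 10 probes. They are 8 of the 16389 genes that could be tested. The cells came from female C57BL/6 mice aged 13 to 14 weeks. Mice of both groups carried dnTGFβRII, a dominant negative form of the TGF-beta receptor II, so that the controls, called TG, are themselves transgenic. The TGC3 group carried the same transgene and also lacked the chemokine receptor CXCR3 (CXCR3-/-). Each group had 3 samples with 1 one-colour array each, and wild-type mice are not part of the comparison. As background, the dnTGFβRII line drives the receptor in T cells from a CD4 promoter, and its mice develop an autoimmune bile duct disease in which CD8+ T cells gather in the liver. The study asked what CXCR3 does in the activation and proliferation of these cells.

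EGR and NR4A genes are immediate early genes. They are switched on within minutes of T cell receptor signalling, without new protein being made, and their transcripts decay quickly. ERK signalling through serum response factor (SRF) and its Elk partners drives Egr1, while calcium signalling through calcineurin, NFAT and MEF2 is a main input of the NR4A genes. EGR1 is a zinc finger activator, EGR2 and EGR3 are known for restraining T cells and for anergy, and the NR4A receptors, which act without a known ligand, are linked to tolerance and exhaustion. NAB1 and NAB2 bind EGR1, EGR2 and EGR3 and recruit the nucleosome remodelling and deacetylase complex, and the EGR factors in turn raise Nab2. In tissue work, the same early genes also respond to the isolation of cells.

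Promoter letters are shown for the NR4A genes, the family whose 3 members all read higher in TGC3, and for Egr2, which did not. They are the 250 bases before the start site on the gene's strand, from RefSeq (GRCm38.p6). Capitals mark TGACG, the core of the cyclic AMP response element (CRE), on either strand, the MEF2 element in Nr4a2 and the CArG box, the SRF site, in Egr2.
Nr4a1 chr15:101266596-101266845 (+): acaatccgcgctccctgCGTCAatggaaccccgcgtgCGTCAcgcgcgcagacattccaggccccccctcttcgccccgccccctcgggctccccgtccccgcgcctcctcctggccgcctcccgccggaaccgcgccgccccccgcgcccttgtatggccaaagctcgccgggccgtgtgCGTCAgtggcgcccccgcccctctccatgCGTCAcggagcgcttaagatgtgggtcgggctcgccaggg
Nr4a2 chr2:57124004-57124253 (-): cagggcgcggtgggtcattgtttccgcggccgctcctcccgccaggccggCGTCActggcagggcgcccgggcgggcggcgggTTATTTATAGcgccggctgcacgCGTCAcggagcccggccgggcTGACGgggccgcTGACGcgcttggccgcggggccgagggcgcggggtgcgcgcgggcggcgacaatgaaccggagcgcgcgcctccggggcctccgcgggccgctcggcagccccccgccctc
Nr4a3 chr4:48045055-48045304 (+): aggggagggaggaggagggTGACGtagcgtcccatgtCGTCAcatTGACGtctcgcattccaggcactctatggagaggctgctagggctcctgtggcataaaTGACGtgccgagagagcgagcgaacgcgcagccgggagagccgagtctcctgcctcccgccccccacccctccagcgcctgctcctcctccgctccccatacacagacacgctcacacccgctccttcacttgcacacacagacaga
Egr2 chr10:67537619-67537868 (+): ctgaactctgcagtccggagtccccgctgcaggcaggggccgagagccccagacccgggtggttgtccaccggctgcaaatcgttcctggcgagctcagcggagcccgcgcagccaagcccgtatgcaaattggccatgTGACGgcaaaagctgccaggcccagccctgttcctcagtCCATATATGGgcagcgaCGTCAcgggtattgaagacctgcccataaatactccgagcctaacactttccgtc

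The CRE core was found 4 times before the start of each of Nr4a1, Nr4a2 and Nr4a3 and 2 times before the start of Egr2 shown here. Egr2 has several start windows, and the count depends on the window. Those that begin at 67537620 and 67537680 also held 2 cores, and those at 67535249 and 67537316 held 0. Of 32851 RefSeq windows of 300 bases (250 before and 50 after a start), 20.8% held the core at least once, and 0.231% held it 4 times or more, a count chosen after these windows were read. A full CRE (TGACGTCA), which contains the core on both strands, lay in none of the 4 windows shown and in 1.79% of all windows. In Nr4a1 the cores began 233, 213, 69 and 40 bases before the start. In Nr4a2 they began 200, 144, 123 and 111 bases before it, with the MEF2 element at 167 (3.19% of windows), which overlaps a match to TATAAA (13.6% of windows). In Nr4a3 they began 231, 213, 205 and 147 bases before the start. The Egr2 window shown held a CArG box 72 bases before the start, as 1.63% of windows did, and the Egr2 window at 67535249 held 0. Nab1 held the EGR element (GCGTGGGCG or GCGGGGGCG) 3 times and Nr4a1 held it once, against 3.47% of windows that held any. The NR4A element AAAGGTCA (1.51% of windows) was in no window of the 6 genes searched, which were Nr4a1, Nr4a2, Nr4a3, Egr2, Nab1 and Nab2. Egr3 had no entry, and Egr1 was left out of the search. All matches named here are of letters only.

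Values below are log2 signals relative to the 75th percentile of their array, so that 0 marks a probe as bright as that percentile, and a change is the TGC3 mean minus the TG mean. Tests are from limma, two-sided, with Benjamini-Hochberg adjustment over all genes and a threshold of 0.05. The 75th percentile lay between 561 and 623 intensity units, and 58.9% to 63.8% of probes were well above background on an array. Precision is limited by having 3 arrays a group. Cxcr3, the deleted gene, read 66110 to 73350 intensity units in TG and 23.8 to 33.0 in TGC3. The TGC3 arrays shared 1 slide and scan run and the TG arrays shared another, and an effect of the slide and one of the genotype therefore cannot be told apart. Over all genes, 2720 (16.6%) were higher and 1548 (9.45%) lower in TGC3, and with arrays centred on their median instead, 27.4% of the calls were increases in place of 63.7%. The T cell markers were above background on all arrays (7 of 7), as were both CD8 markers. Of the 7 T cell markers 0 rose and 2 fell (limma adjusted p = 0.0480 for Cd3d and 0.0415 for Cd3g). In units of the 75th percentile they summed to 495 to 548 on TGC3 arrays and 544 to 591 on TG arrays. The CD8 markers summed to 420 to 448 and 443 to 507, and neither passed the test. Markers of other cells differed by array: the summed neutrophil markers, in units of the 75th percentile, ranged from 1.74 to 8.28 over the TGC3 arrays and from 0.450 to 0.506 over the TG arrays, with 2 of 11 above background on all arrays and Csf3r, Cxcr2 and Elane on none. The TGC3 sums are mostly S100a9 and S100a8, and the TG sums mostly Mmp9. Of the 5 neutrophil markers tested, 2 rose (S100a8 and S100a9) and 1 fell (Mmp9, by 2.31, limma adjusted p = 0.00122). S100a8 was above background on only 3 arrays and S100a9 on 4, and S100a8 read -7.35, -7.34 and -7.26 in TG. Of 15 macrophage and monocyte markers, 8 were above background on all arrays and C1qa and C1qc were among those on none, and 3 rose (Lyz2, Marco and C1qb) and 0 fell of the 8 tested. Their sum, 229 to 289 over TGC3 arrays and 256 to 271 over TG arrays, is nearly all Ly6c2, which T cells can also express. Without Ly6c2 it was 2.32, 7.26 and 2.90 on TGC3 1 to 3 and 2.83, 2.41 and 2.89 on TG 1 to 3. The gamma-delta T cell markers summed to 2.41 to 4.04 on TGC3 arrays and 7.13 to 8.09 on TG arrays, with 2 of 3 above background on all arrays and Sox13 on none. The part of such cells in the results was not tested.

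Of the 8 genes, 3 rose in TGC3 (Egr1, Nr4a1 and Nr4a2), 0 fell and 5 did not pass the test, against 16.6% of all genes that rose and 9.45% that fell. The TGC3 and TG arrays did not overlap for 5 genes, with TGC3 higher in each, where 24.3% of all genes were so separated upwards and 22.4% downwards. Of these 5, Nr4a3 was not above background on the TG arrays and entered the test only through TGC3. In a bulk sample, fewer cells that express a gene and less RNA per cell cannot be told apart.

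**Figure D1:**
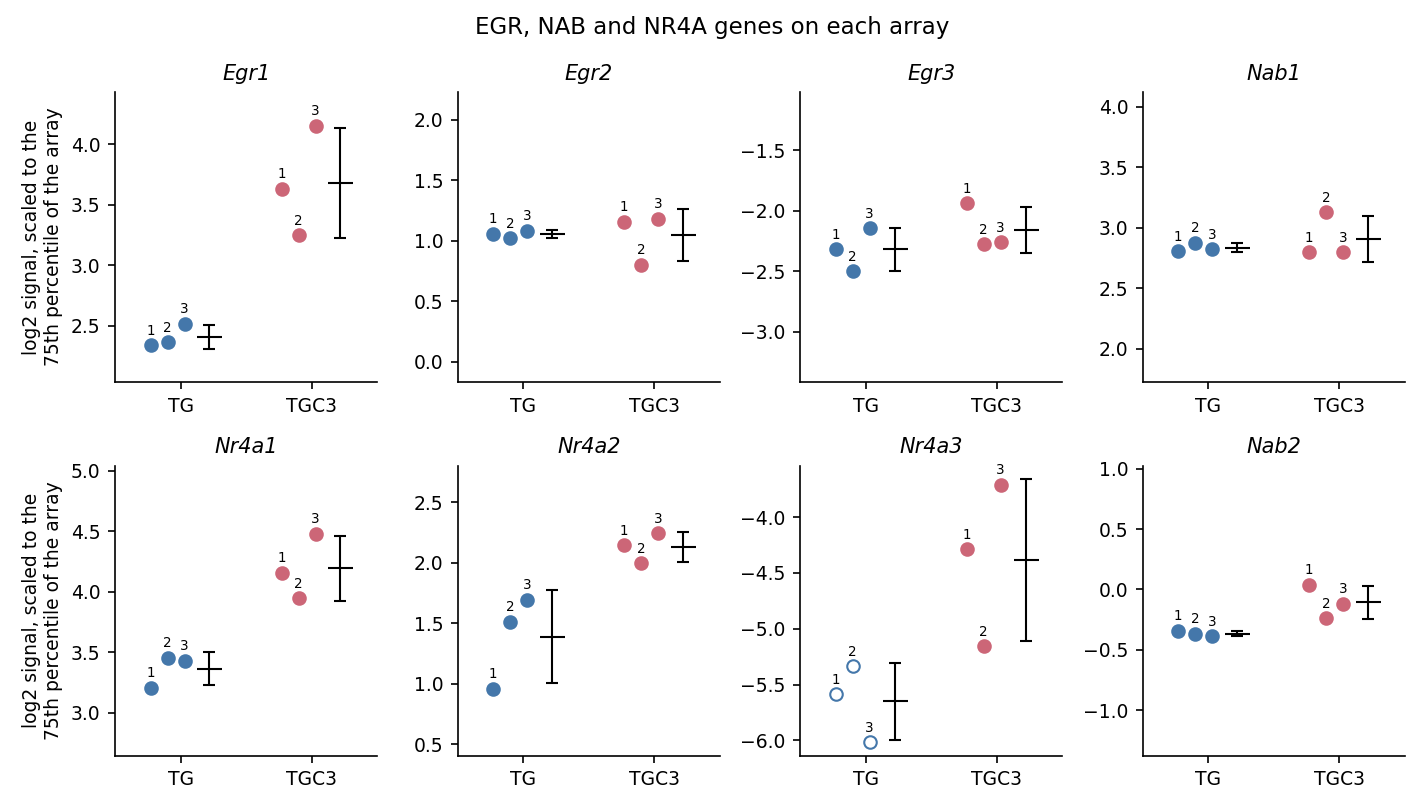
Each panel gives 1 gene, with the log2 signal relative to the array's 75th percentile on the y axis and the 3 TG and 3 TGC3 arrays on the x axis, numbered by replicate. Bars are the mean ± SD of 3 arrays, open circles are readings not well above background, all panels span at least 2.4 log2 units, and the y axes start at different levels. The TGC3 circles lie above all TG circles for Egr1, Nr4a1, Nr4a2, Nr4a3 and Nab2.

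Egr1 was the gene with the clearest change among the EGR factors. Its single probe (chr18:35024395-35024454 of mm9, plus strand, as the files place it) read 7371, 5802 and 11100 intensity units on TGC3 1 to 3 and 2843, 2946 and 3551 on TG 1 to 3. On the log2 scale these are 3.63, 3.25 and 4.16 against 2.34, 2.36 and 2.52. Every TGC3 array was above every TG array, and TGC3 arrays were spread more widely (SD 0.46) than TG arrays (SD 0.10), with TGC3 3 the brightest. The change was 1.27 ± 0.22 (SE, n = 3 per group), or 2.42-fold with a 95% interval of 1.66 to 3.52, with a limma adjusted p of 0.0118. Leaving out any 1 array kept the change between 1.03 and 1.49 and the adjusted p at or below 0.0434.

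Egr2, in contrast, had nearly equal means in both groups. Its probe (chr10:67004758-67004817 of mm9, plus strand) is spotted 10 times on each array, which gives its level a precision within an array that the other genes lack. The array means of TGC3 were 1.16, 0.80 and 1.18, beside 1.06, 1.02 and 1.08 for TG. The groups overlapped, since TGC3 2 was the lowest array of all and TGC3 1 and TGC3 3 the highest. The change was -0.01 ± 0.11 (SE, n = 3 per group), with a 95% interval of -0.28 to 0.27 and a limma adjusted p of 0.970, so that the interval leaves out a rise of the size seen for Egr1. The 10 spots of an array had an SD of 0.06 to 0.09. On TGC3 2 they lay between 0.66 and 0.90, and on the other TGC3 arrays between 1.04 and 1.27, so that the low value of TGC3 2 was shared by its 10 spots.

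**Figure D2:**
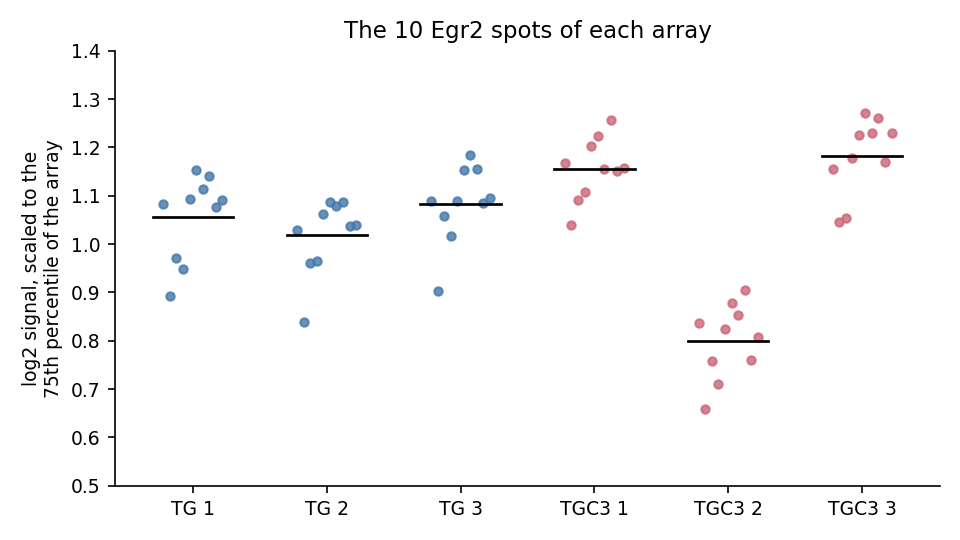
Each point is 1 of 10 Egr2 spots on an array, as log2 signal relative to the array's 75th percentile (y axis, which does not start at 0), for the 3 TG and 3 TGC3 arrays on the x axis, and the line is their mean. The spots of TGC3 2 average 0.80, below the means of the other 5 arrays, which lie between 1.02 and 1.18.

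Egr3 did not pass the test on the 1 of its 2 probes that could be read. That probe (chr14:70481979-70482038 of mm9, plus strand, assigned to a cDNA clone of the gene) read -1.94, -2.28 and -2.26 in TGC3 and -2.32, -2.50 and -2.14 in TG, with overlapping groups. The change was 0.16 ± 0.13 (SE, n = 3 per group; interval -0.16 to 0.48; limma adjusted p = 0.406). The other Egr3 probe (chr14:70478827-70478886 of mm9, plus strand) was not well above background on any array, at 4.17, 6.75 and 7.78 intensity units in TGC3 and 2.66, 2.78 and 4.25 in TG, so it gave no fold. The letters of the Nr4a2 and Nr4a3 probes are shown because their readings limit the results below, and no base is marked.
Nr4a2: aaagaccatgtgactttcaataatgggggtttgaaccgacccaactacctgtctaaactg
Nr4a3: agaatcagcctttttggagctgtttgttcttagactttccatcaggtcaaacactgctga

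Nr4a1, also known as Nur77 and widely used as a reporter of recent antigen receptor signalling, rose in TGC3. Its probe (chr15:101105071-101105130 of mm9, plus strand) read 10610, 9413 and 13920 intensity units in TGC3 and 5187, 6275 and 6692 in TG. These are 4.16, 3.95 and 4.48 against 3.21, 3.45 and 3.43 on the log2 scale, with the groups apart and TGC3 3 again highest. The change was 0.83 ± 0.15 (SE, n = 3 per group), or 1.78-fold with a 95% interval of 1.38 to 2.29, with a limma adjusted p of 0.0129. With any 1 array left out the change was at least 0.69 and the adjusted p at most 0.0433.

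Nr4a2 (Nurr1) also rose, with TG arrays more widely spread (SD 0.38) than TGC3 arrays (SD 0.12). Its probe (chr2:56960699-56960758 of mm9, minus strand) read 2628, 2437 and 2950 intensity units in TGC3 and 1090, 1634 and 2008 in TG. On the log2 scale TGC3 lay at 2.15, 2.00 and 2.24 and TG at 0.96, 1.51 and 1.70, so the groups did not overlap, and TG 1 stood lowest. The change was 0.74 ± 0.20 (SE, n = 3 per group), or 1.67-fold with an interval of 1.20 to 2.32, with a limma adjusted p of 0.0387. The call was lost without TGC3 1, TGC3 2, TGC3 3 or TG 2 (adjusted p = 0.0628 to 0.108). It was also lost with arrays centred on their median (change 0.57, adjusted p = 0.0701). Relative to the median of all genes the change is 0.75 under both scalings by construction, since each subtracts 1 number per array.

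Nr4a3 (Nor1) was dim, and above background in TGC3 alone. Its 60 bases are placed over a stretch of 3187 bases of mm9 (chr4:48080690-48083876, plus strand), so that they are not contiguous there. It read 30.4, 17.1 and 47.6 intensity units in TGC3, well above background on 3 of 3 arrays, and 11.7, 14.2 and 9.56 in TG, well above background on 0 of 3. TGC3 was 2.08-fold brighter with each TG array held at a floor. The floor was the lowest signal of any probe above background on that array, or the Nr4a3 reading where that was higher. Over the 6 arrays that lowest signal ranged from 12.05 to 18.05 intensity units. It is not a detection limit of this probe, so 2.08 is no strict lower limit. The adjusted p of the limma fit was 0.0557, taken against TG readings below background, so that no exact fold is given. The 2.08-fold value applies to the processed signal only. With normexp background correction the fitted log2 change of Nr4a3 was 0.23 (limma adjusted p = 0.1455). Dim genes as a class read higher in TGC3: in the lowest decile of genes by signal, to which Nr4a3 belongs, the median change was 0.33 and 27.0% of 1639 genes were higher.

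**Figure D3:**
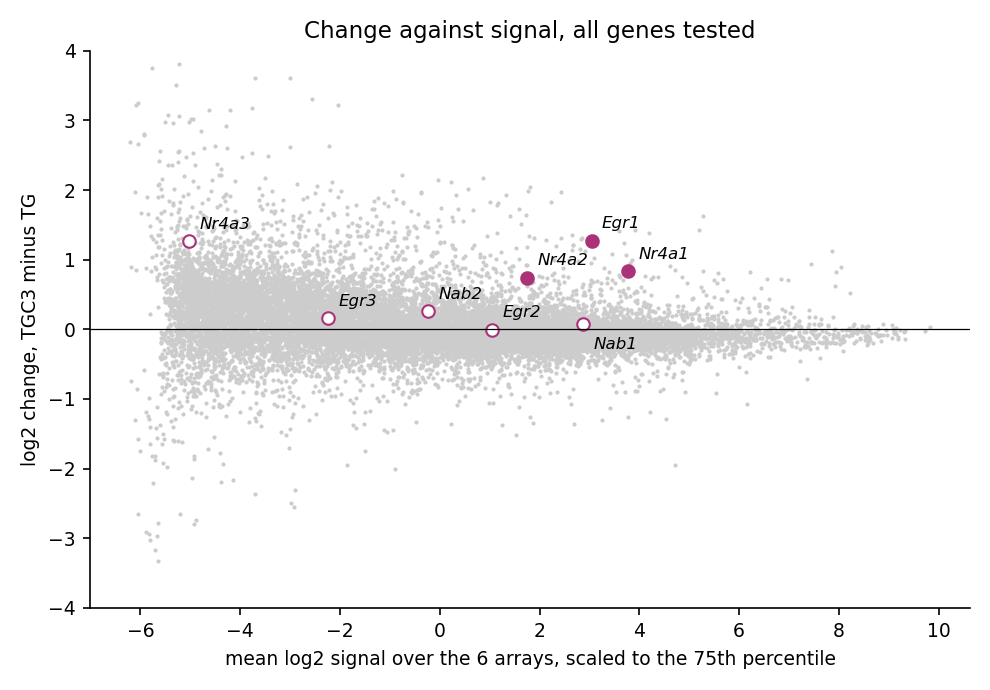
Mean log2 signal over the 6 arrays (x axis, relative to the 75th percentile) against the log2 change, TGC3 minus TG (y axis), for the tested genes in grey, except Cxcr3 and any gene beyond the axis. The 8 genes are circled, filled where the limma adjusted p is under 0.05, and Egr1, Nr4a1 and Nr4a2 lie among the bright genes, at changes of 1.27, 0.83 and 0.74, while Nr4a3 lies at the dim end.

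The 3 genes that rose lie among bright genes, where increases were few. In the decile of genes by signal that holds Egr1, the median change was -0.08 and 5.00% of genes were higher. In the brightest decile, which holds Nr4a1, it was -0.08 and 5.43%. In the decile that holds Nr4a2 it was -0.07 and 6.41%.

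Neither of the corepressors Nab1 and Nab2 passed the test. The brighter Nab1 probe (chr1:52514174-52514233 of mm9, minus strand) read 2.80, 3.13 and 2.80 in TGC3 and 2.81, 2.88 and 2.82 in TG. Its change was 0.07 ± 0.11 (SE, n = 3 per group; interval -0.18 to 0.33; limma adjusted p = 0.642), and TGC3 2 was the only array that stood apart, as the highest. The other Nab1 probe (chr1:52515132-52515191 of mm9, minus strand) read 1.92, 2.22 and 1.87 against 1.83, 1.87 and 2.06, a difference of 0.08, with TGC3 2 again highest.

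The Nab2 probe (chr10:127097981-127098040 of mm9, minus strand) read 0.04, -0.24 and -0.12 in TGC3 and -0.34, -0.37 and -0.39 in TG. All TGC3 arrays were above all TG arrays, and the TG arrays lay close together (SD 0.02). The change was 0.26 ± 0.08 (SE, n = 3 per group; 1.20-fold; interval of the log2 change 0.06 to 0.46) and did not pass the limma test (adjusted p = 0.0682). Without TGC3 2 it was 0.32 and passed (adjusted p = 0.0351).

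**Figure D4:**
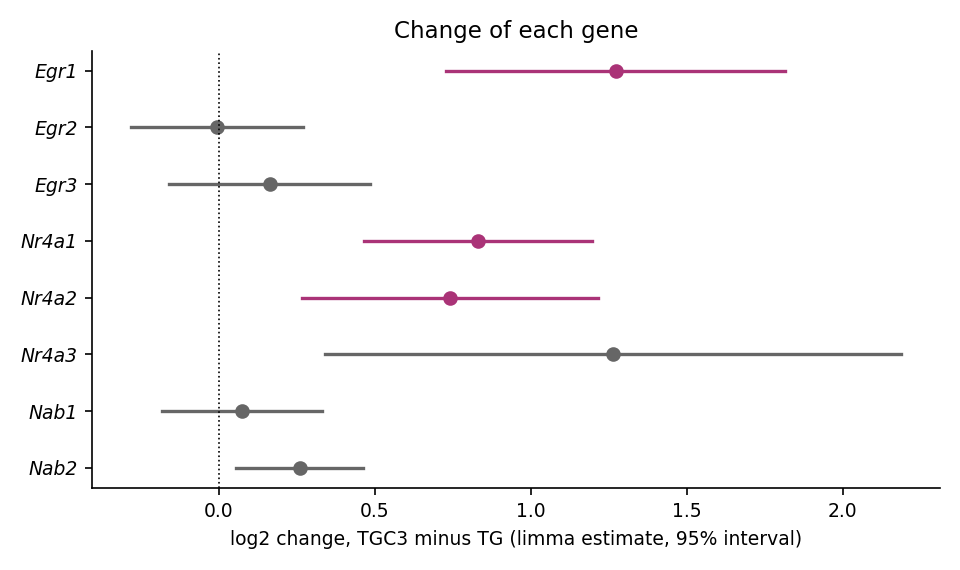
Fitted log2 change, TGC3 minus TG (x axis), for each gene (y axis), with 95% intervals from limma on 3 arrays per group, coloured where the adjusted p is under 0.05. The intervals of Egr1, Nr4a1, Nr4a2, Nr4a3 and Nab2 lie above 0, before adjustment over all genes, and the last 2 did not pass it. The point of Nr4a3 rests on TG readings that were not above background.

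The arrays were not alike within TGC3. TGC3 2 was the lowest TGC3 array for 7 of the 8 genes, all but Nab1, where 34.6% of all genes had it lowest. TGC3 3 was the highest of all arrays for 5 of the 8, and the share of all genes with it highest was not counted. For Egr1, Nr4a1, Nr4a2 and Nr4a3 the highest array had to be a TGC3 array, as all of these lay above TG. TGC3 2 is also the array with the highest neutrophil sum, and Lyz2, a lysozyme of macrophages and neutrophils, read -1.62, 1.16 and -0.82 in TGC3 and -2.64, -4.56 and -3.75 in TG. Egr1, Nr4a1 and Nr4a2 were thus lowest, within TGC3, on the array where these markers were highest, and their part in the results was not tested. Without TGC3 2 the changes of Egr1 and Nr4a1 were 1.49 and 0.96, both past the limma test, and that of Nr4a2 was 0.81, which was not.

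Among relatives and partners of the factors (7 listed, 5 tested), 2 rose and 0 fell, with a median change of 0.09 against -0.01 over all genes, of which 16.6% rose and 9.45% fell. The count that rose was 1 with quantile or cyclic loess scaling, with the deposited values and with no filter, where Egr4 did not pass. Egr4, the fourth EGR gene, read -3.94, -3.74 and -3.49 in TGC3 and -5.13, -4.17 and -5.08 in TG, above background on all arrays, with a change of 1.07 ± 0.28 (SE, n = 3 per group; limma adjusted p = 0.0364). It kept its call when TG 2 was left out and lost it when any other array was (adjusted p = 0.0756 with quantile scaling). With normexp background correction its change was 0.28. Its decile of genes by signal had a median change of 0.28 with 30.8% higher. Rxra, the retinoid X receptor alpha, which pairs with NR4A1 and NR4A2 on DNA, read 2.18, 2.04 and 2.25 against 1.61, 1.65 and 1.69. Its change was 0.51 ± 0.07 (limma adjusted p = 0.00685), and it passed whichever array was left out. Of its 2 kept probes 1 was called, and with the mean of both its change was 0.27 (adjusted p = 0.0289).

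Of 10 NAB and nuclear corepressor partners, all tested, 1 rose and 2 fell, beside 16.6% and 9.45% of all genes, with a median of -0.02. Chd4, the remodelling ATPase that NAB proteins bind, rose by 0.24 ± 0.07 (SE, n = 3 per group; limma adjusted p = 0.0459). Of its 3 kept probes 0 passed when each was tested by itself, and with their mean its change was 0.07 (adjusted p = 0.519). Rcor1 (CoREST) and Kdm1a (the histone demethylase LSD1), which act in 1 complex that NR4A2 can recruit, fell by 0.25 ± 0.06 (adjusted p = 0.0275) and 0.31 ± 0.07 (adjusted p = 0.0204). Chd4 and Rcor1 lost their calls whichever array was left out, and Kdm1a when it was TGC3 3, TG 2 or TG 3.

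Few genes of the signalling input passed the test. In the path through ERK and SRF (18 listed, 17 tested), 0 rose and 3 fell, with a median of -0.11 and 2 of 17 changes above 0, beside 16.6% of all genes that rose and 9.45% that fell. Most of the 17 are bright genes. In the deciles of signal that hold Egr1, Egr2, Nr4a1 and Nr4a2, the median change was -0.08 to -0.07. There, 5.00% to 8.1% of genes were higher and 11.3% to 13.4% lower. Rps6ka1, the kinase RSK1 downstream of ERK, read 3.00, 3.29 and 2.97 in TGC3 and 3.54, 3.59 and 3.62 in TG and fell by 0.50 ± 0.10 (SE, n = 3 per group; limma adjusted p = 0.0171). Rasgrp1, which activates RAS after T cell receptor signalling, fell by 0.25 (adjusted p = 0.0239), and Map2k2 (the kinase MEK2) fell by 0.20 (adjusted p = 0.0452). Of 2 kept probes each, 1 was called for Rps6ka1 and 1 for Rasgrp1. With the mean of probes the change was -0.36 for Rps6ka1 (adjusted p = 0.0429) and -0.17 for Rasgrp1 (adjusted p = 0.0787). Rps6ka1 lost its call without TGC3 1, TGC3 3, TG 2 or TG 3, Rasgrp1 whichever array other than TGC3 2 was left out, and Map2k2 whichever array was left out. Of the 13 alternative settings that kept all arrays, Rps6ka1 passed in 13, Rasgrp1 in 7 and Map2k2 in 5. In the path through calcineurin, NFAT and MEF2 (17 listed, 16 tested), 0 rose and 1 fell, with a median of -0.04, a share that fell (6.25%) below that of all genes. Mef2d, a MEF2 factor, fell by 0.36 ± 0.08 (adjusted p = 0.0239). With 1 array left out its call was kept only without TGC3 2. It passed in 10 of the 13 settings that kept all arrays, and 1 of its 3 kept probes was called. With arrays centred on their median the counts that fell were 9 of 17 and 6 of 16, and with quantile scaling they were 1 and 1. With normexp, 2 of the 16 rose. On median centring the median of all genes moved from -0.01 to -0.18. These are transcript levels, and the activity of the kinases was not measured.

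Of the genes linked to EGR2 and EGR3 in T cells (19 listed, 18 tested), 3 rose and 3 fell, with a median of -0.06, beside 16.6% and 9.45% of all genes. Nrgn, neurogranin, a calmodulin-binding protein that EGR2 and EGR3 are known to raise in anergic T cells, read -2.85, -2.67 and -2.65 in TGC3 and -4.19, -4.67 and -4.59 in TG. Its change was 1.77 ± 0.14 (SE, n = 3 per group; limma adjusted p = 0.00168), and it passed whichever array was left out. With normexp background correction its change was 0.61, and in its decile of genes by signal 30.8% were higher. Cdkn1a, the cell cycle inhibitor p21, rose by 0.79 ± 0.23 (adjusted p = 0.0484). Fasl, the death ligand, fell by 0.54 ± 0.11 (adjusted p = 0.0200), and Socs1, an inhibitor of cytokine signalling, fell by 0.52 ± 0.11 (adjusted p = 0.0214). Cdkn1a kept its call when TGC3 2 was left out and lost it when any other array was. In the 13 alternative settings that kept all arrays, Cdkn1a passed in 3, with Fasl and Socs1 passing in 11 each. The lowest change of Cdkn1a over all settings was 0.37. Fasl lost its call without TGC3 2, TGC3 3 or TG 2, and Socs1 without TGC3 3, TG 1, TG 2 or TG 3. The remaining 2 calls, named here after their values were seen, were Tnfrsf9 (the costimulatory receptor 4-1BB), which rose by 0.40 (adjusted p = 0.0452), and Bcl6, which fell by 0.49 (adjusted p = 0.0109). The count that rose was 1 without TGC3 1, TGC3 3, TG 1 or TG 2, and the count that fell was 1 without TGC3 3 or TG 2. With quantile, median or cyclic loess scaling, the deposited values, normexp, no filter or the mean of probes, 1 gene of the list rose. On median centring 6 fell.

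Of the genes linked to NR4A factors in T cells (14 listed, 11 tested), 2 rose and 1 fell, shares (18.2% and 9.09%) close to those of all genes (16.6% and 9.45%), with a median of -0.08. Pdcd1, the inhibitory receptor PD-1, read 0.28, -0.06 and -0.61 in TGC3 and -1.24, -0.94 and -0.75 in TG, and rose by 0.85 ± 0.24 (SE, n = 3 per group; limma adjusted p = 0.0491). Klf2, a factor of quiescence and migration, rose by 0.31 (adjusted p = 0.0287), and Bcl2l11 (BIM, a death protein) fell by 0.33 (adjusted p = 0.0386). With 1 array left out, Pdcd1 passed only without TGC3 3, Klf2 only without TGC3 1 and Bcl2l11 only without TG 3. In the 13 alternative settings that kept all arrays, Pdcd1 and Bcl2l11 passed in 5 each and Klf2 in 10. Of 3 kept Bcl2l11 probes 1 was called. Irf4, a factor that the T cell receptor induces, had a change of 0.05 ± 0.18 and Tox, which NR4A factors induce in exhausted cells, one of -0.08 ± 0.16, and neither passed the test (adjusted p = 0.867 and 0.759). These 2 were named after their values were seen.

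Of 34 other immediate early genes tested (35 listed), 13 rose and 2 fell, or 38.2% and 5.88% beside 16.6% and 9.45% of all genes, with a median of 0.27 and 23 changes above 0. Over all genes the median was -0.01 and 48.6% of changes were above 0. Fos, a subunit of AP-1, read 4.65, 4.40 and 4.75 in TGC3 and 3.79, 3.63 and 4.23 in TG, a rise of 0.72 ± 0.18 (SE, n = 3 per group; limma adjusted p = 0.0310). Fosb rose by 0.92 ± 0.25 (adjusted p = 0.0417), Ier3 by 1.17 ± 0.31 (adjusted p = 0.0382) and Gadd45b, a stress gene, by 0.74 ± 0.08 (adjusted p = 0.00368). The 2 that fell were Klf10 (-0.38, adjusted p = 0.0223) and Fosl2 (-0.32, adjusted p = 0.0375), and Cd69, an early activation antigen, was at -0.48 ± 0.19 (adjusted p = 0.112), all named after their values were seen. TGC3 2 was the lowest TGC3 array for 26 of the 34, as it was for most EGR and NR4A genes. Leaving out TGC3 1, TGC3 3 or TG 1 brought the count that rose to 5, and leaving out TG 2 brought it to 6. The count that fell was 0 without TGC3 1, TG 1 or TG 2 and 1 without TGC3 3 or TG 3. Gadd45b passed whichever array was left out, Fos and Fosb lost their calls without TGC3 1, TGC3 3, TG 1 or TG 2, and Ier3 without TGC3 1, TGC3 3, TG 2 or TG 3.

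**Figure D5:**
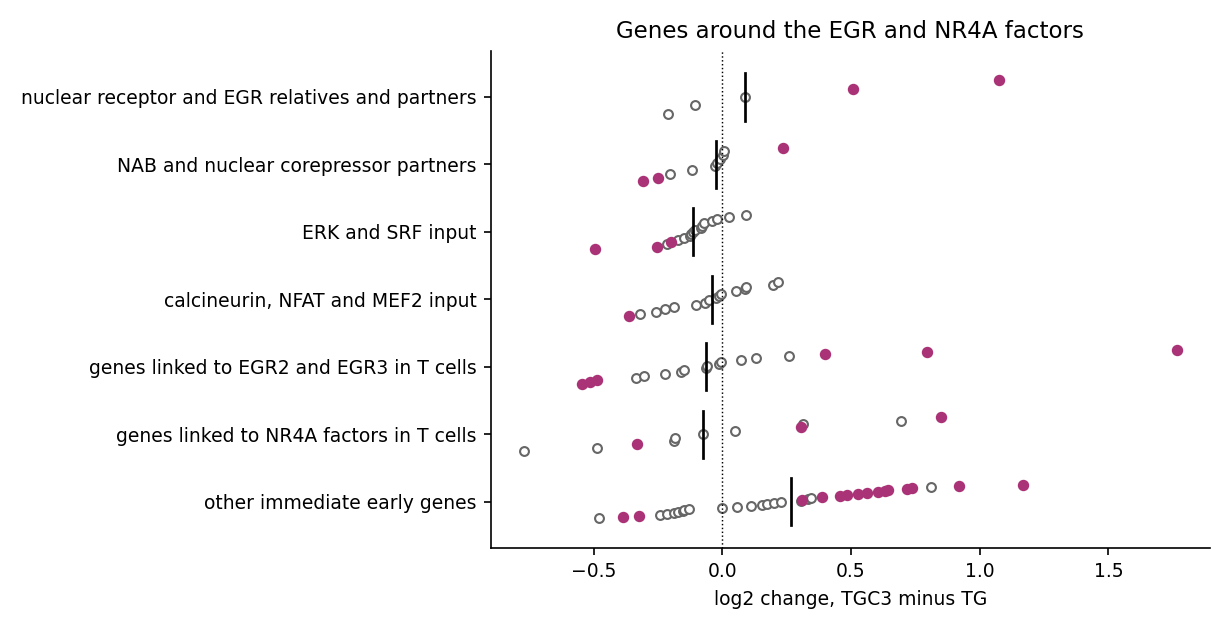
Each circle is a tested gene of a list (y axis) at its log2 change, TGC3 minus TG (x axis), filled where the limma adjusted p is under 0.05, and the black line is the list's median. Immediate early genes have the median farthest to the right (0.27), and the medians of the ERK and SRF list (-0.11) and of the calcineurin list (-0.04) lie left of 0.

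Across the 6 arrays, which fall into the 2 groups, the genes with values most like those of Egr1 were the transcript models NAP055718-1 and TC1659371 (Pearson r = 0.995 each). For Nr4a1 they were Serpina10 (0.993) and Olfr1271 (0.992), for Nr4a2 Gm4951 (0.993) and NAP108202-1 (0.991), and for Nr4a3 AK157575 (0.995) and Kifap3 (0.991). For Egr2 they were BC046331 (0.988) and Trp53i11 (0.987), and for Egr3 TC1725107 (0.995) and Tmco3 (0.988). These are the 2 highest among 16381 genes over only 6 arrays, so that values this high are no result by themselves. Over deviations from the group means, the nearest genes were Nfat5 and Stam2 for Egr1, Hectd4 and Ylpm1 for Egr2, Gtf3c6 and Casd1 for Egr3, Dnaja3 and Dyrk3 for Nr4a1, and Glcci1 and P4hb for Nr4a2.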

How the data were processed

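RNA of liver CD8+ T cells from 3 TGC3 and 3 TG samples was hybridised, in 1 colour (Cy3), to Agilent arrays, each with 45018 spots. Per the file headers, Feature Extraction 10.7.3.1 made the processed signal, an intensity after background subtraction, where version 10.7.1.1 stands in the submitters' processing notes. The deposited matrix is on a log2 scale with equal medians (5.57), its making not given in the sources used here, and served as an alternative. Nothing beyond sample codes says that arrays are separate mice, so the spread behind the p-values is that between these samples, which may be technical.

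The log2 processed signal was averaged over the spots of a probe and scaled by each array's 75th percentile. Of 41163 probes, 25103 passed a filter (well above background on 3 or more of the 6 arrays). They were named from RefSeq records where an accession or symbol matched. Each gene was read by its brightest probe (16389 genes). Of the probes, 27664 were named by accession, 5585 by symbol and 471 by synonym, and 7443 kept the name in the files. The groups were compared in R 4.3.3 by limma 3.58.1 (lmFit, eBayes), and tables were made with Python 3.11.15. The procedure was tested on simulated data. Genes named from the gene lists are up to 4 with the largest change past the threshold, besides the 8 genes, Cxcr3, the genes most like 6 of them over the arrays, and those said to be named later. A floor for a group below background is, per array, the lowest signal of any probe well above background, or the probe's own reading where that was higher.

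The alternatives were quantile, median and cyclic loess scaling, the deposited values, normexp (offset 50, also with 7 aberrant spot backgrounds on TG 3 replaced), omitting the filter or asking it of all 6 arrays, the mean of probes or each probe, trend and robust eBayes, array weights, a block by replicate number, and omitting 1 array at a time. The genes and lists were chosen with earlier results of these data known. Probe positions are the files' (mm9), and exon or UTR annotation of that build was not used here. Some results of the rule for named genes and lists are not reported here.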

Additional observations from a re-analysis of the deposited data

How the results depend on the processing

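Over 19 alternative settings, Egr1 and Nr4a1 passed the test in all 19, Nr4a2 in 12, Nab2 in 2, and Egr2, Egr3 and Nab1 in 0. The cause of the differences between settings was not tested. The number of the 8 genes that rose was 5 with array weights and 2 to 4 when 1 array was left out, and 0 fell in any setting. The higher counts include Nr4a3, which entered the test only through TGC3 and has no value under a filter on all 6 arrays. Nab2 passed with array weights (adjusted p = 0.0187) and without TGC3 2. Nr4a2 also missed the threshold with no filter (adjusted p = 0.0839).

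Small changes turned sign. That of Egr2 was 0.0325 with quantile scaling, 0.0340 with the deposited values, 0.0312 with normexp, 0.0374 with its backgrounds replaced, 0.0440 with cyclic loess, 0.0773 with array weights and -0.0754 to 0.116 without 1 array (0.0079 without TG 3). That of Egr3 was -0.013 on median centring. That of Nab1 was -0.102 on median centring, -0.0028 with array weights and -0.0383 to 0.129 without 1 array.

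Median centring moved the median of all genes to -0.18 and omitting the filter moved it to 0.13. Genes higher numbered 1801 on median centring and 1752 to 2356 without 1 array. Genes lower numbered 4766 on median centring, 578 with no filter, 2414 with array weights and 573 to 1505 without 1 array. Calls were 78.3% increases with no filter. Other immediate early genes that rose numbered 5 on median centring, 5 with no filter and 5 to 14 without 1 array. Those that fell numbered 6 on median centring, 0 with no filter, 1 with the mean of probes and 0 to 2 without 1 array.

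Same-numbered arrays did not deviate together (r = -0.003, -0.08 and -0.10), where arrays of unlike number gave r of -0.01 to 0.10. These values cannot settle whether the numbers pair the arrays, since deviations from means of 3 arrays constrain each other and the labels do not say. With the replicate number as a block, 1795 genes were higher, 554 lower and 1 immediate early gene fell, 2 of the 8 genes rose, and Nr4a2 had an adjusted p of 0.0598. Of the 20 genes named from lists, 3 (Rxra, Nrgn and Gadd45b) passed whichever array was left out and 4 (also Rps6ka1) in all other settings.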
